A study of Mus musculus with 38 samples.

Results

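The 8 regulators of the primitive streak and the posterior body axis T, Nkx1-2, Cdx1, Cdx2, Evx1, Gsc, Eomes and Mixl1 were followed in mouse embryonic stem cells. They were chosen by name and are 8 of the 25965 genes in the expression table. Each symbol matched 1 row. Poly(A) RNA had been sequenced from E14, an XY embryonic stem cell line of the 129/Ola background, grown without feeder cells on gelatin. Every medium contained leukaemia inhibitory factor (LIF), the L in its name. S/L was DMEM with fetal bovine serum. MEKi/L, GSK3i/L and 2i/L shared serum-free N2B27 medium: the inhibitors added were PD03259010 (as the labels spell it) at 1 µM against MEK for MEKi/L, CHIR99021 at 3 µM against GSK3 for GSK3i/L, and the pair for 2i/L. There were 3 libraries per medium at 8 days and 2 further GSK3i/L libraries at 24 days (replicates 2 and 3), 14 libraries in 5 groups. All come from 1 cell line, and the sources used here call the samples biological replicates without saying whether they were separate cultures, so a p-value here reflects the spread of these samples alone. Any comparison with S/L joins the change of basal medium to the change of inhibitor, and these cannot be told apart.

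The primitive streak is the site in the gastrulating embryo where epiblast cells become mesoderm and endoderm. Wnt, Nodal and BMP signals induce it. GSK3 marks beta-catenin for degradation, so that GSK3 inhibition activates the Wnt/beta-catenin pathway, whose TCF/LEF factors act on genes such as T. MEK is the kinase above ERK and relays FGF signals. T (Brachyury) and Eomes are T-box factors: T acts in the posterior streak, tail bud and notochord, and Eomes in the definitive endoderm, early mesoderm and trophoblast. Nkx1-2, Cdx1, Cdx2 and Evx1 are homeobox factors of the posterior streak and caudal epiblast, and the Cdx factors activate Hox genes. Gsc is a homeobox factor of the anterior streak and organizer, and Mixl1 is a homeobox factor of mesendoderm. In bulk RNA, more cells that express a gene and more RNA per cell cannot be told apart.

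The 3 promoters are shown because their genes show the main patterns described below, T and Nkx1-2 with CHIR99021 and Gsc with the MEK inhibitor. RefSeq's table (GRCm38.p6) held promoters for 6 of the 8 genes: T, Nkx1-2, Gsc, Eomes, Evx1 and Cdx2. The sequences run 5′ to 3′ on the strand of the gene and end at the base before its start. For Gsc, the start is that of the gene in the expression table, which leaves out the 91 bases nearest to the RefSeq start. Capitals mark a TCF/LEF core, CTTTGA on either strand (TCAAAG when read on the other strand), or the letters TATAAA on the strand of the gene.
T, chr17:8434173-8434422, plus strand: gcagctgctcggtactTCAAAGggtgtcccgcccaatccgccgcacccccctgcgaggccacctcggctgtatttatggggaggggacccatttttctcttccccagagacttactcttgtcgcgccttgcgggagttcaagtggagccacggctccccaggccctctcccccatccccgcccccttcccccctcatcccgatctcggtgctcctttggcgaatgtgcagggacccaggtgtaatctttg
Nkx1-2, chr7:132599638-132599887, minus strand: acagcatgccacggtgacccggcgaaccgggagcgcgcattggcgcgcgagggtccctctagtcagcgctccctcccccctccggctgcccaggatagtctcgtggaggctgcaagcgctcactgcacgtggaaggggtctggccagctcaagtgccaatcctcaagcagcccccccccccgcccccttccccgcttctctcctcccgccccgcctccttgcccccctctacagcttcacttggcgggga
Gsc, chr12:104473328-104473486, minus strand: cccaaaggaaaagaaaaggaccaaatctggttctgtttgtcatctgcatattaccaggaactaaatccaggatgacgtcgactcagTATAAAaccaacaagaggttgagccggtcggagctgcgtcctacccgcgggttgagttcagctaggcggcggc
Among the 250-base windows of the 6 genes, the TCF/LEF core was found only in T, at 234 to 229 bases before the start, and TATAAA only in Gsc, at 164 to 159 bases before the RefSeq start. The matches do not overlap each other. The core occurred in 13.8% and TATAAA in 7.6% of all 32851 promoter windows of this length. A match is a description of these letters and not a binding site.

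Levels are in RPM (reads scaled to the total of the library, mean ± SD), with the read number of a library in brackets where it is low. The deposited values of MEKi/L, 2i/L and the 24-day libraries (8 in all) are whole multiples of 1 read, at 10550000 to 15760000 reads per library. In the other 6, from S/L and 8-day GSK3i/L, the values follow 1 shared distribution, so their depths (about 8000000 to 18290000) and read numbers are estimates by rank. A library stands apart from its group in 2 cases. The mean log2 level of genes with long transcripts minus that of genes with short ones (23 and 25 genes found) was 0.53 in MEKi/L replicate 1 against -2.14 and -1.67 in its partners. It was 0.20 in GSK3i/L replicate 1 at 8 days against -1.93 and -3.05. This score also differed between media, at -3.01 ± 0.24 in S/L and 0.39 ± 0.08 in 2i/L (n = 3 each), and its part in the results was not tested beyond the values given beside them. The 10 listed markers of embryonic stem cells, among them Pou5f1, Nanog and Sox2, were detected in every group and summed to 3345 to 5861 RPM.

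**Figure D1:**
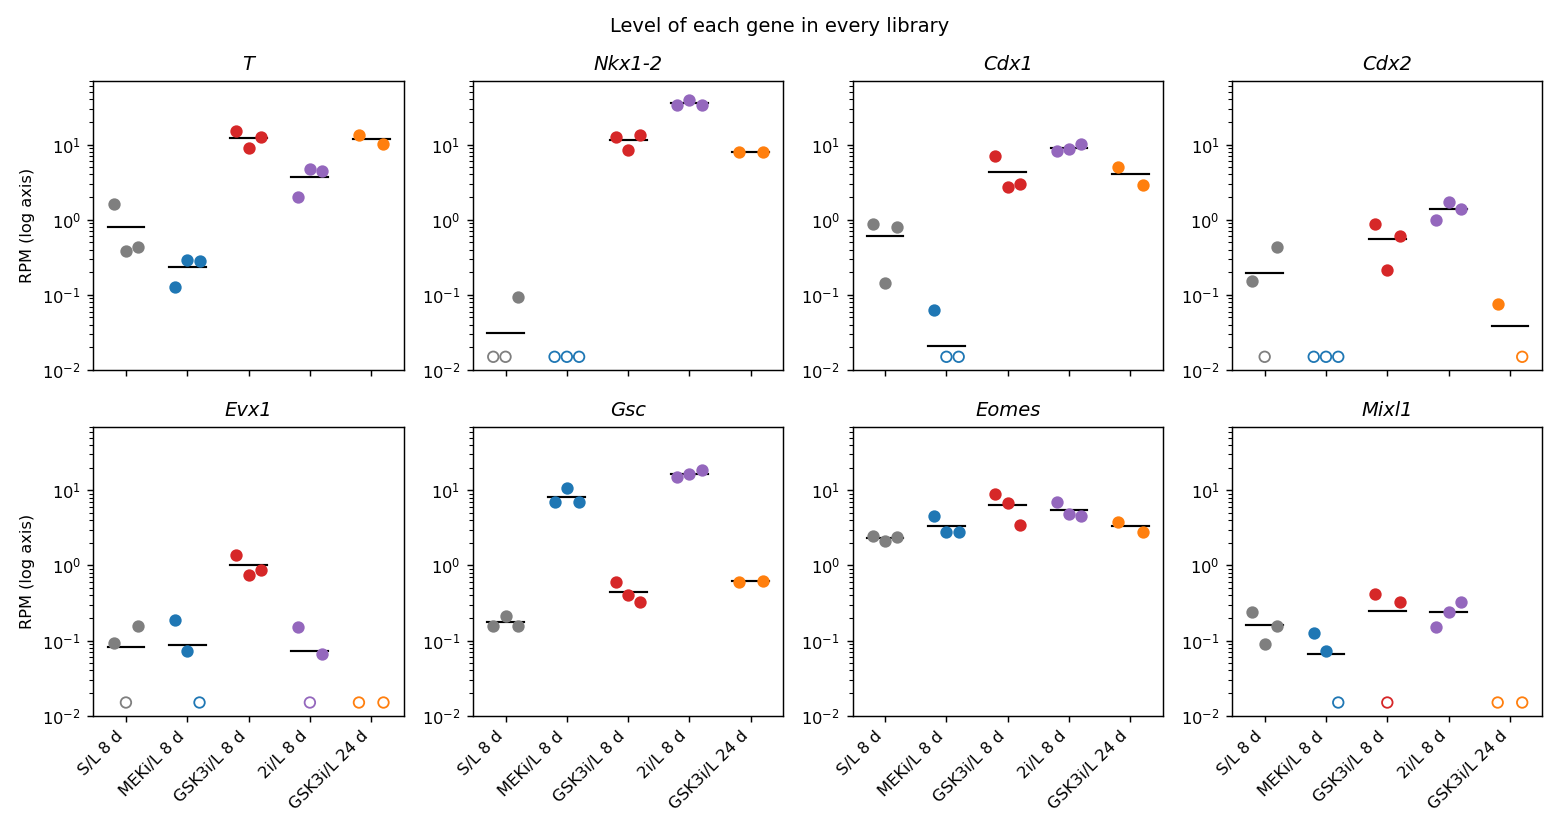
Level in RPM (log axis) of each of the 8 genes in all 14 libraries, grouped by medium and time. Filled points are libraries, open points at the bottom are libraries with 0 reads, and black lines are group means where above 0. T, Nkx1-2 and Cdx1 were high in the 3 groups given CHIR99021, Gsc in the 2 groups given the MEK inhibitor, and Evx1 in GSK3i/L at 8 days.

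A gene was tested where 3 or more libraries had 0.5 RPM or more. This left 14980 genes, 7 of the 8 among them. Mixl1 was left out. Evx1 passed only through the 3 GSK3i/L libraries at 8 days, Cdx2 through 5 libraries of GSK3i/L and 2i/L at 8 days, and Nkx1-2 through the 8 libraries given CHIR99021, so these 3 had to differ between media. Gsc passed through no S/L library and T and Cdx1 through no MEKi/L library. The minimum bears on the gene lists below in the same way. The counts of called genes support nothing by themselves, here or in the lists. A gene was called where the Benjamini-Hochberg adjusted p of limma over all 14980 genes was under 0.05 and the difference was at least 2-fold. Against S/L, 6 of the 7 were higher in GSK3i/L (Cdx2 was not called) and 0 lower, where 9.39% of all genes were called higher and 10.1% lower. In MEKi/L against S/L 1, Gsc, was higher and 2, Cdx1 and T, were lower, against 15.7% and 9.7% of all genes. In 2i/L against S/L 6, all but Evx1, were higher and 0 lower, against 23.7% and 18.5%.

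Between the serum-free media the basal medium was shared. In GSK3i/L against MEKi/L 5 of the 7 were higher (Cdx1, Cdx2, T, Nkx1-2 and Evx1) and 1 was lower (Gsc), where 4.17% of all genes were called higher and 8.64% lower. In 2i/L against MEKi/L 5 were higher (Cdx1, Cdx2, T, Nkx1-2 and Gsc) and 0 lower, against 3.2% and 5.29%. In 2i/L against GSK3i/L 2 were higher (Nkx1-2 and Gsc) and 2 lower (T and Evx1), against 9.84% and 6.59%. From 8 to 24 days in GSK3i/L 0 rose and 2 fell (Cdx2 and Evx1), against 2.87% and 7.1%. The median log2 difference of the 7 genes was 3.06, -0.35, 2.91, 3.20, 3.99, 1.22 and -0.49 in these comparisons, in the order given. The median over all tested genes was 0.06, 0.17, 0.28, -0.09, 0.07, 0.18 and -0.19. The minimum for testing bears on the medians of the 7 as it does on the counts, so they support nothing by themselves. The comparisons share groups, so they are not independent of each other.

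**Figure D2:**
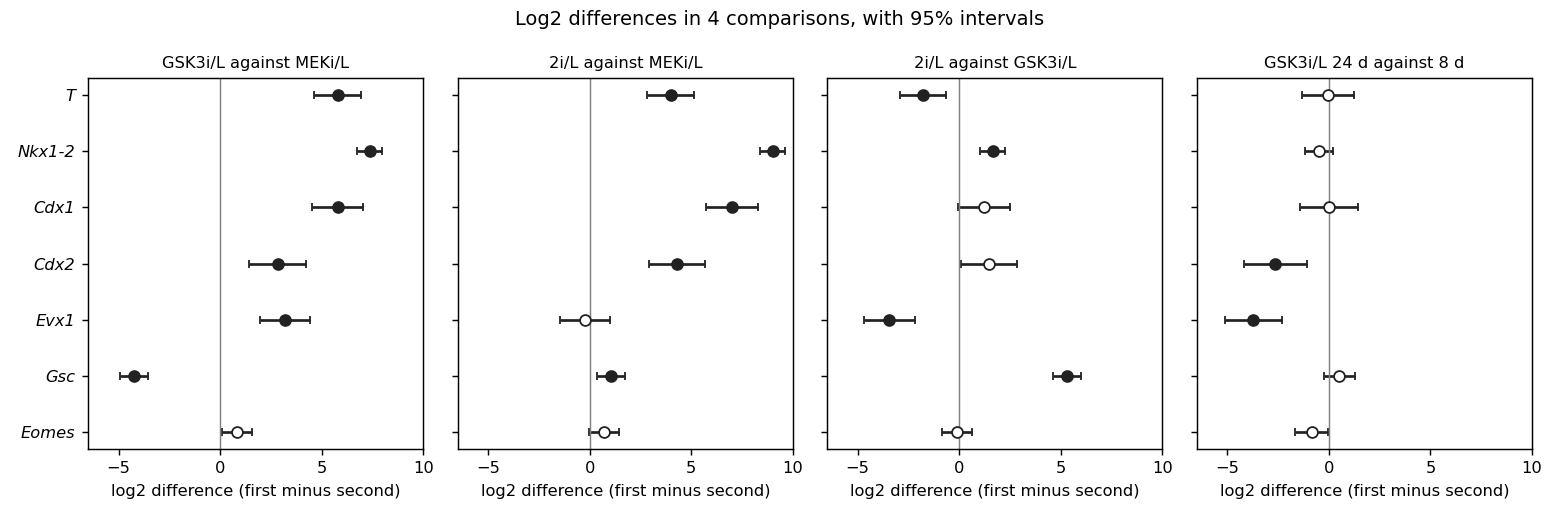
Log2 difference (first medium minus second) with its 95% interval for the 7 tested genes in 4 comparisons. Filled points were called and open points were not. The 95% intervals of T and Cdx1 from 8 to 24 days span 0, and Gsc lies below 0 in GSK3i/L against MEKi/L and above 0 in 2i/L against GSK3i/L.

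T (chr17:8434423-8442496, plus strand, GRCm38) was high in all groups given CHIR99021, and highest in GSK3i/L without the MEK inhibitor. It stood at 15.2, 8.92 and 12.7 RPM in GSK3i/L at 8 days and at 13.6 and 10.2 RPM at 24 days. It reached 1.98, 4.66 and 4.50 RPM in 2i/L, 1.62, 0.379 and 0.435 RPM in S/L, and 0.127, 0.288 and 0.284 RPM (2, 4 and 3 reads) in MEKi/L. No 2i/L library reached any GSK3i/L library, and no S/L library reached any 2i/L library. The limma log2 difference was 4.22 ± 0.54 (SE; adjusted p = 7.43e-05) for GSK3i/L against S/L and 5.78 ± 0.54 (adjusted p = 5.96e-06) against MEKi/L. In 2i/L, T was above S/L by 2.43 ± 0.54 (limma adjusted p = 0.00145) and above MEKi/L by 3.99 ± 0.54 (adjusted p = 0.000278). It was below GSK3i/L, with a log2 difference of -1.79 ± 0.54 (limma adjusted p = 0.0235). This last call was lost without GSK3i/L replicate 3 (-1.75, adjusted p = 0.0586), without 2i/L replicate 1 (-1.39, adjusted p = 0.102), and after adjustment for the transcript score (-1.43, adjusted p = 0.121).

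At 24 days T differed from its 8-day level by -0.03 on the log2 scale (95% interval -1.31 to 1.26), an interval that leaves room for a 2-fold change either way. In MEKi/L it was below S/L by -1.56 ± 0.54 (limma adjusted p = 0.0315). That difference rested on few reads and on single libraries: it was -0.89 without S/L replicate 1 (limma adjusted p = 0.161) and -1.17 without MEKi/L replicate 1 (adjusted p = 0.133). It was also lost with log2(RPM + 0.5) values (-0.72, limma adjusted p = 0.116), with only these groups in the fit (adjusted p = 0.0915) and after adjustment for the score (-1.21, adjusted p = 0.151). The order of the T levels was GSK3i/L at either time, then 2i/L, S/L and MEKi/L, and the 2 GSK3i/L times did not differ beyond their spread.

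Nkx1-2 was found almost only in the groups given CHIR99021, and was highest in 2i/L. It had 0 reads in all 3 MEKi/L libraries and 1 read in all of S/L. In GSK3i/L it stood at 12.5, 8.54 and 13.3 RPM at 8 days and at 8.05 and 8.01 RPM at 24 days. The 2i/L libraries held 33.9, 38.6 and 33.3 RPM, each above every GSK3i/L library. With 3 reads per library taken as the floor for the MEKi/L libraries, Nkx1-2 was at least 49-fold higher in GSK3i/L and at least 153-fold higher in 2i/L than in MEKi/L. Against the single read of S/L, 462 reads in GSK3i/L gave a ratio of 325 (exact 95% counting interval 58 to 12900). Nkx1-2 met the minimum for testing only through the libraries given CHIR99021, so its separation from S/L and MEKi/L supports nothing by itself. The difference between the groups given CHIR99021 was itself called: 2i/L exceeded GSK3i/L by 1.65 ± 0.29 on the log2 scale (limma adjusted p = 0.000989). The 24-day level was -0.49 from the 8-day level (95% interval -1.18 to 0.21, limma adjusted p = 0.282), with groups that did not overlap.

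The Nkx1-2 gene (chr7:132594877-132599637, minus strand, GRCm38) holds the whole of Gm16764, annotated on the opposite strand, and lies within the span of Fgfr2 on its own strand. Whether reads were counted by strand is not given in the sources used here. Gm16764 had 0 reads in S/L and MEKi/L, and stood at 1.28 ± 0.24 RPM in GSK3i/L (n = 3), 4.07 ± 0.31 RPM in 2i/L (n = 3) and 0.732 ± 0.039 RPM at 24 days (n = 2), in the order of Nkx1-2. Reads of the pair cannot be assigned with certainty. Fgfr2 had another order, with S/L at 17.3 ± 2.36, MEKi/L at 17.6 ± 3.17, GSK3i/L at 9.95 ± 3.11 and 2i/L at 8.6 ± 1.66 RPM (n = 3 each), and with its lowest level at 24 days, 5.49 ± 0.57 RPM (n = 2).

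Cdx1 followed T and Nkx1-2 in its response to CHIR99021. Its levels were 7.08, 2.70 and 3.02 RPM in GSK3i/L, 8.23, 8.77 and 10.2 RPM in 2i/L and 5.09 and 2.91 RPM at 24 days. S/L held 0.878, 0.142 and 0.794 RPM (9, 2 and 9 reads), and MEKi/L held 1 read in 3 libraries. All libraries given CHIR99021 lay above all that were not. Cdx1 rose against S/L by 3.06 ± 0.60 in GSK3i/L (limma adjusted p = 0.00195) and by 4.29 ± 0.60 in 2i/L (adjusted p = 4.29e-05). Against the 1 read of MEKi/L, the ratio of read rates was 190 for GSK3i/L (exact 95% counting interval 33.7 to 7540) and 29 for S/L (4.64 to 1200), and MEKi/L was called lower than S/L (limma adjusted p = 0.00279). In 2i/L all libraries were above all GSK3i/L libraries, but the difference of 1.22 (95% interval -0.05 to 2.50) was not called (limma adjusted p = 0.134). It was called at 1.11 with log2(RPM + 0.5) values (limma adjusted p = 0.0285), with only these groups in the fit (adjusted p = 0.0485), and without S/L replicate 2 (adjusted p = 0.0362). Without MEKi/L and GSK3i/L replicate 1, it was called at 1.66 (limma adjusted p = 0.0471). GSK3i/L replicate 1, the library with the high long-transcript score, held the 7.08 RPM. Cdx1 at 24 days was -0.01 from 8 days (95% interval -1.44 to 1.42).

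Cdx2 (chr5:147300805-147307270, minus strand, GRCm38), which also specifies trophectoderm and intestine, was highest in 2i/L and had at most 22 reads in any library. Cdx2 met the minimum for testing only through GSK3i/L and 2i/L libraries at 8 days, so its p-values against other groups support nothing by themselves. It had 0 reads in MEKi/L, 2, 0 and 5 reads in S/L (0.154, 0 and 0.435 RPM), and 0.868, 0.215 and 0.603 RPM in GSK3i/L. In 2i/L it stood at 0.991, 1.74 and 1.39 RPM, above every other library. At 24 days in GSK3i/L 1 read was found in 1 of 2 libraries. It rose in 2i/L against S/L by 2.91 ± 0.65 (limma adjusted p = 0.00158; 2.48 and adjusted p = 0.108 after adjustment for the score) and was at least 5-fold higher than the floor of MEKi/L. In GSK3i/L it was at least 2-fold above that floor (limma adjusted p = 0.00706; 0.0742 without replicate 1 of both media). GSK3i/L against S/L overlapped (1.44, limma adjusted p = 0.102) and was called without S/L replicate 3 (2.09, adjusted p = 0.0349) or without GSK3i/L replicate 2 (2.03, adjusted p = 0.0449). MEKi/L against S/L was not called either (-1.38, limma adjusted p = 0.102; -1.93 and 0.0406 without S/L replicate 2). Cdx2 in 2i/L against GSK3i/L reached 1.47 (limma adjusted p = 0.103; 1.89 and 0.0485 without replicate 1 of MEKi/L and GSK3i/L).

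The fall of Cdx2 between 8 and 24 days in GSK3i/L was from 19 reads to 1, a ratio of 11.8 (exact 95% counting interval 1.88 to 492). The 8-day libraries held 13, 2 and 4 reads, estimated by rank, and the interval covers counting error only, not the spread between libraries. It was called at -2.64 ± 0.73 (limma adjusted p = 0.0291). Without GSK3i/L replicate 1 at 8 days the difference was -2.22 (limma adjusted p = 0.114), without replicate 2 at 24 days -2.61 (adjusted p = 0.153), and without replicate 3 at 24 days -2.67 (adjusted p = 0.108). The call also ended with quantile normalization (-2.21, limma adjusted p = 0.0597), log2(RPM + 0.5) values (-0.93, 0.0505), these groups alone in the fit (-2.64, 0.159) and adjustment for the score (-2.38, 0.156). It ended too without replicate 1 of MEKi/L and GSK3i/L at 8 days (-2.22, limma adjusted p = 0.0798). The sign stayed the same in all of these, and the size stayed within 0.5 of the first value in all but the log2(RPM + 0.5) values. Cdx2 met the minimum only through 8-day libraries and had 1 read at 24 days, so an unchanged sign supports nothing by itself.

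Evx1 was detected above a few reads only in GSK3i/L at 8 days, at 1.38, 0.746 and 0.876 RPM (22, 8 and 6 reads). S/L held 1, 0 and 2 reads, MEKi/L 3, 1 and 0, 2i/L 2, 0 and 1, and GSK3i/L at 24 days 0 in both libraries. No library of another group reached the lowest GSK3i/L library at 8 days. Evx1 met the minimum for testing only through these GSK3i/L libraries, so this separation and the p-values of Evx1 support nothing by themselves. The ratio of read rates was 8.44 against S/L (exact 95% counting interval 2.67 to 42.8; limma adjusted p = 0.00115) and 12.5 against 2i/L (3.93 to 63.2; adjusted p = 0.000735). Against the floor of 3 reads per library, Evx1 was at least 4-fold lower at 24 days (limma adjusted p = 0.00402; 0.0547 after adjustment for the score). The gene (chr6:52313498-52318378, plus strand, GRCm38) overlaps 5730457N03Rik on the opposite strand, which stood at 0.551 ± 0.213 RPM in GSK3i/L at 8 days (n = 3) and at 0 to 0.0635 RPM in the other libraries. Reads in the overlap cannot be assigned with certainty.

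Fibroblast and mesenchyme markers moved with Evx1. In 8-day GSK3i/L the summed level of 12 such genes was 273, 186 and 117 RPM. The sum was 16.0 to 18.2 RPM in S/L, 7.11 to 12.9 in MEKi/L, 16.3 to 17.7 in 2i/L and 6.91 to 8.28 at 24 days. Of 11 tested markers 9 rose and 0 fell in GSK3i/L against S/L (median log2 difference 3.27), and 0 rose and 10 fell from 8 to 24 days (median -5.06). Of all genes, 9.39% were called higher in the first comparison and 7.1% lower in the second. Col3a1, a fibrillar collagen, stood at 86.7 ± 36.6 RPM at 8 days and 0 reads at 24 days, and Prrx1, a limb and craniofacial mesenchyme factor, at 6.91 ± 1.62 RPM and 0 reads. Lum had 0 reads in the 4 other groups, and 7 of the 12 genes had 0 reads at 24 days. In 8-day GSK3i/L, T was at 8.92 to 15.2 RPM and Nkx1-2 at 8.54 to 13.3 RPM. In the 24-day libraries, where the markers summed to at most 8.28 RPM, T was at 13.6 and 10.2 RPM and Nkx1-2 at 8.05 and 8.01 RPM. The part of these markers in the Evx1, Cdx2, T and Nkx1-2 results was not tested.

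**Figure D3:**
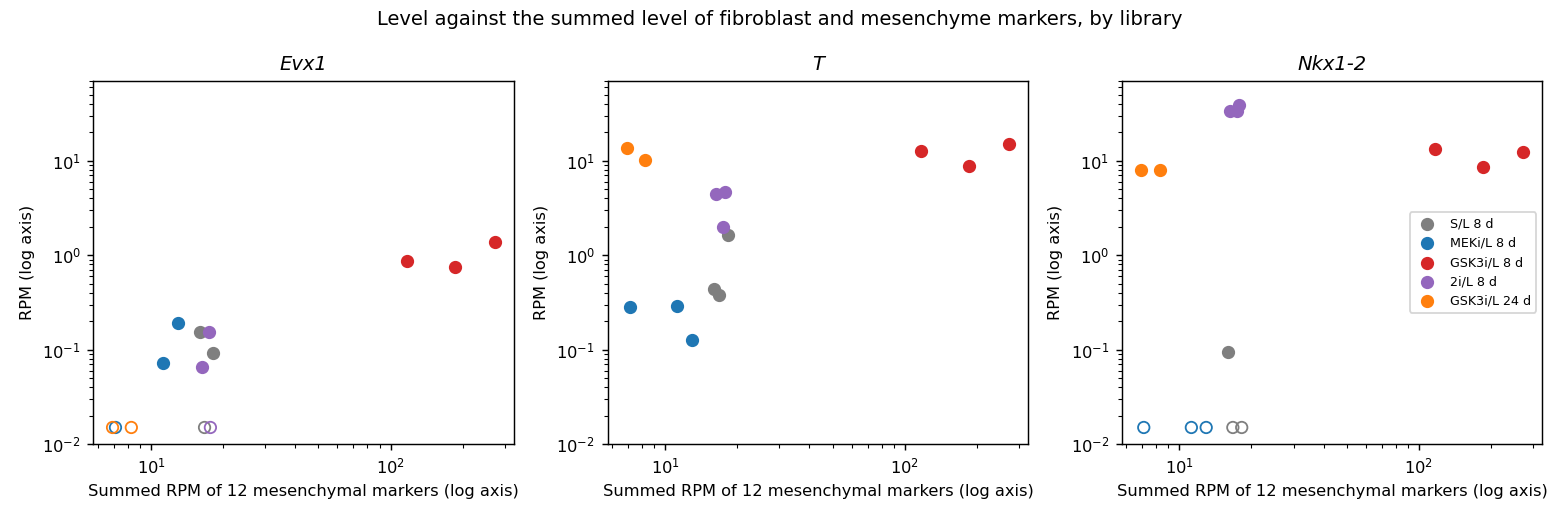
Level of Evx1, T and Nkx1-2 in RPM (log axis) against the summed RPM of 12 fibroblast and mesenchyme markers (log axis), 1 point per library, with open points at the bottom for 0 reads. Evx1 reached 0.746 RPM or more only in the 3 libraries with marker sums of 117 RPM or more. T was at 8.92 to 15.2 RPM in those libraries, and at 10.2 RPM or more in the 24-day libraries with sums of 6.91 and 8.28 RPM.

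Gsc (chr12:104471209-104473327, minus strand, GRCm38) showed a separate pattern and was high with the MEK inhibitor. It stood at 6.98, 10.8 and 6.92 RPM in MEKi/L and at 14.9, 16.7 and 18.6 RPM in 2i/L. S/L held 0.154, 0.215 and 0.155 RPM (2, 3 and 2 reads), GSK3i/L 0.597, 0.403 and 0.324 RPM (9, 4 and 2 reads) and the 24-day libraries 0.608 and 0.616 RPM. The lowest library with the MEK inhibitor was at 6.92 RPM and the highest without it at 0.616 RPM. Against S/L the log2 difference was 5.54 ± 0.32 in MEKi/L (limma adjusted p = 7.13e-08) and 6.59 ± 0.32 in 2i/L (adjusted p = 7.61e-09). Gsc in 2i/L exceeded GSK3i/L by 5.28 ± 0.32 (limma adjusted p = 2.75e-07), and GSK3i/L lay below MEKi/L (-4.24 ± 0.32, adjusted p = 9.86e-07).

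All 2i/L libraries held more Gsc than all MEKi/L libraries, a difference of 1.05 ± 0.32 (95% interval 0.35 to 1.74). The limma adjusted p of 0.0476 was just under the threshold, and the call was lost in 16 of the 24 alternative analyses, among them leaving out any MEKi/L or 2i/L library in turn (0.94 to 1.26, adjusted p 0.06 to 0.172). It was also lost without S/L replicate 3 (limma adjusted p = 0.0537), GSK3i/L replicate 2 at 8 days (0.0535), or either 24-day library (0.0557 and 0.0556). The difference of GSK3i/L from S/L was small (1.31 ± 0.32, limma adjusted p = 0.00868) and rested on 15 against 7 reads. That call was lost with log2(RPM + 0.5) values (0.47, limma adjusted p = 0.109) and with only these groups in the fit (adjusted p = 0.117). From 8 to 24 days Gsc was not called (0.52, 95% interval -0.26 to 1.30).

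Eomes (chr9:118478212-118486132, plus strand, GRCm38) was present in every library, with no called difference above 1.36 on the log2 scale. The S/L libraries held 2.48, 2.09 and 2.36 RPM, those of MEKi/L 4.57, 2.81 and 2.75, of GSK3i/L 9.02, 6.71 and 3.41, of 2i/L 7.09, 4.90 and 4.56, and at 24 days 3.80 and 2.82. S/L was the lowest group and overlapped no other, while the other 4 groups overlapped, except 2i/L and the 24-day libraries. Eomes rose against S/L by 1.36 ± 0.34 in GSK3i/L (limma adjusted p = 0.00964) and by 1.23 ± 0.34 in 2i/L (adjusted p = 0.00653). Within GSK3i/L at 8 days the order of the libraries by Eomes was their order by long-minus-short score. In 2i/L and at 24 days the order was the reverse, and S/L and MEKi/L showed neither. The score also differed between media (-3.01 ± 0.24 in S/L, 0.39 ± 0.08 in 2i/L), so adjustment for it cannot separate score from medium. After adjustment for the score the differences from S/L were 0.91 in GSK3i/L (limma adjusted p = 0.0331, under the 2-fold minimum) and 0.15 in 2i/L (adjusted p = 0.833). TMM scaling gave 0.98 for 2i/L (limma adjusted p = 0.0222). GSK3i/L against MEKi/L was not called (0.85, limma adjusted p = 0.109), but was with quantile normalization (1.09, 0.0467), after adjustment for the score (1.01, 0.00939) and without GSK3i/L replicate 3 (1.25, 0.0115). From 8 to 24 days the difference was -0.85 (limma adjusted p = 0.121; -1.25 and 0.0122 without GSK3i/L replicate 3 at 8 days). 2i/L against GSK3i/L gave -0.13 (95% interval -0.86 to 0.61).

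**Figure D4:**
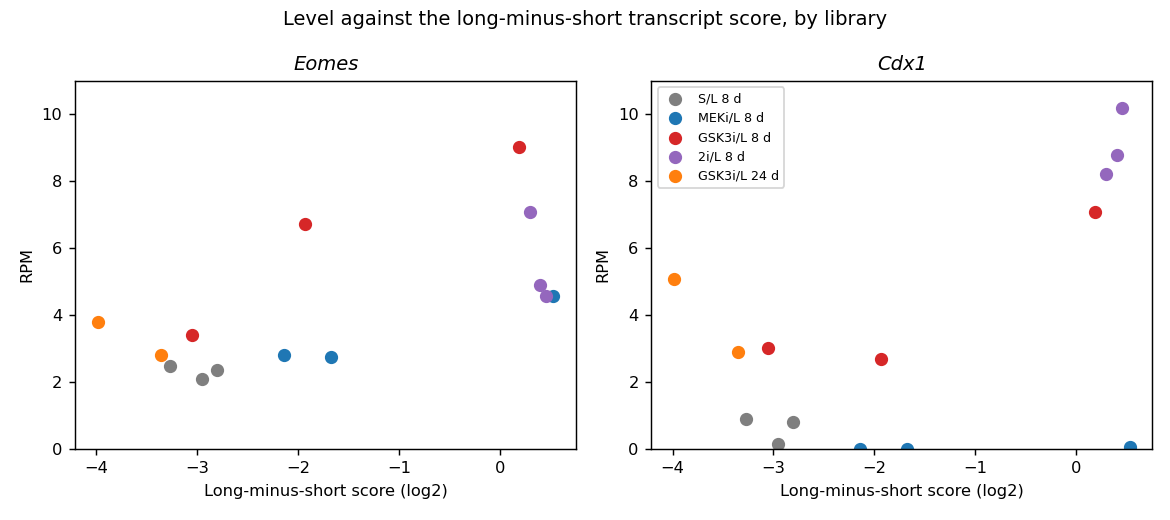
Level of Eomes and Cdx1 in RPM against the long-minus-short transcript score (log2), 1 point per library. Within GSK3i/L at 8 days Eomes is 9.02, 6.71 and 3.41 RPM at scores of 0.20, -1.93 and -3.05. Within 2i/L it is 7.09, 4.90 and 4.56 RPM at scores of 0.30, 0.41 and 0.46, the reverse order. Cdx1 in MEKi/L is at most 0.0635 RPM at every score.

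Mixl1 (chr1:180693043-180697034, minus strand, GRCm38) had at most 6 reads in any library. Its libraries held 3, 1 and 2 reads in S/L, 2, 1 and 0 in MEKi/L, 6, 0 and 2 in GSK3i/L, 2, 3 and 5 in 2i/L, and 0 in both at 24 days, where 3 reads per library would be 0.246 RPM. The highest library stood at 0.413 RPM, under the minimum for testing, so that no difference could be shown at this depth. Fitted with no minimum, its adjusted p in limma was 0.1 or more in all 7 comparisons.

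Of the posterior axis genes that are not among the 8 (22 listed, 12 tested), 7 rose and 0 fell in GSK3i/L against S/L. Their median log2 difference was 1.80, and 9.39% of all genes were called higher and 10.1% lower. The minimum for testing favours genes that are high in a single medium. Hoxa10 and Hoxd9 were highest in 8-day GSK3i/L, so the counts support nothing by themselves. Axin2, a feedback inhibitor and standard target of Wnt/beta-catenin signalling, rose from 5.32 ± 0.99 to 49.1 ± 11.3 RPM (limma adjusted p = 1.17e-06). The Hox genes Hoxd9 (0.0306 ± 0.053 to 1.24 ± 0.29 RPM, limma adjusted p = 0.000127) and Hoxa10 (0.0516 ± 0.0893 to 1.84 ± 0.47 RPM, adjusted p = 0.00112) rose from near 0. From 8 to 24 days 0 rose and 6 fell (median -1.70), against 2.87% and 7.1% of all genes. Those that fell include Hoxa10 (to 0.456 ± 0.645 RPM), Hoxb9 (to 0.808 ± 0.146 RPM) and Hoxd9 (to 0 reads). Axin2 also fell, to 23.9 ± 2.38 RPM (limma adjusted p = 0.025). Sp5 went from 23.8 ± 2.89 to 9.35 ± 2.89 RPM and was not called (limma adjusted p = 0.111). The mesenchymal markers were also high in the 8-day GSK3i/L libraries and low at 24 days, and their part was not tested. Hoxb9 was at 5.21 ± 1.96 RPM in 2i/L and 4.08 ± 0.88 RPM in MEKi/L, where the markers summed to at most 17.7 RPM. Of the 12, 5 rose and 1 fell in 2i/L against S/L (median 0.88), against 23.7% and 18.5% of all genes. The rises were led by Axin2 (67.0 ± 9.65 RPM), the zinc-finger Wnt target Sp5 (23.2 ± 6.71 against 3.27 ± 1.57 RPM, limma adjusted p = 0.000399) and Hoxb9 (5.21 ± 1.96 against 0.976 ± 0.230 RPM).

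Against MEKi/L, 6 of these 12 posterior genes rose and 0 fell in GSK3i/L (median 1.85), and 3 rose and 0 fell in 2i/L (median 0.56). Of all genes, 4.17% were called higher in GSK3i/L and 3.2% in 2i/L there. Sp5 was 0.159 ± 0.198 RPM in MEKi/L and 23.8 ± 2.89 RPM in GSK3i/L (log2 difference 7.48 ± 0.54, limma adjusted p = 5.94e-07). MEKi/L against S/L had 2 higher and 4 lower (median -0.33), against 15.7% and 9.7% of all genes. The lower ones included Sp5 and the related Sp8. In 2i/L against GSK3i/L 0 were higher and 3 lower (median -0.40), against 9.84% and 6.59% of all genes. Hoxa10 was at 0.121 ± 0.038 RPM in 2i/L against 1.84 ± 0.47 RPM in GSK3i/L (limma adjusted p = 0.00166). Only genes past the 0.5 RPM minimum were tested, and Hoxb5 and Evx2 are among those that did not pass.

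Ligands and modulators of the signals of the streak (15 listed, 13 tested) did not move one way. The list holds inhibitors, such as Lefty1, beside inducers, so its counts and medians give no direction for streak induction. In GSK3i/L against S/L 3 rose and 5 fell (median -0.02), where 9.39% of all genes were called higher and 10.1% lower. Wnt5b rose from 0.631 ± 0.173 to 7.82 ± 0.95 RPM (limma adjusted p = 1.91e-05) and Rspo3, an enhancer of Wnt signalling, from 0 reads to 1.24 ± 0.41 RPM (adjusted p = 0.000415). Rspo3 met the minimum for testing only through GSK3i/L at 8 days, so its p-value supports nothing by itself. Lefty1, a Nodal inhibitor, fell from 140 ± 50.4 to 18.9 ± 3.76 RPM (limma adjusted p = 1.34e-05). MEKi/L against S/L had 2 higher and 4 lower (median -0.18), and 2i/L against S/L 4 and 5 (median -0.22). Of all genes, 15.7% and 23.7% were called higher in these, and 9.7% and 18.5% lower. GSK3i/L against MEKi/L had 4 higher and 4 lower (median -0.93), 2i/L against MEKi/L 2 and 2 (median -0.12), and 2i/L against GSK3i/L 2 and 5 (median -0.23). Of all genes, 4.17%, 3.2% and 9.84% were called higher in these, and 8.64%, 5.29% and 6.59% lower. From 8 to 24 days 0 rose and 5 fell (median -0.89), against 2.87% and 7.1% of all genes. Lefty2 fell from 95 ± 28.9 to 15.5 ± 2.19 RPM (limma adjusted p = 0.00066).

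Markers of the mesoderm that leaves the streak (16 listed, 15 found, 11 tested) showed 3 higher and 3 lower in GSK3i/L against S/L (median 0.10), 1 and 3 in MEKi/L against S/L (median -0.67), and 2 and 4 in 2i/L against S/L (median -0.34). Of all genes, 9.39%, 15.7% and 23.7% were called higher in these, and 10.1%, 9.7% and 18.5% lower. Msgn1, a factor of presomitic mesoderm, had 0 reads in all 14 libraries, and Mesp1, of early cardiac mesoderm, 0 in GSK3i/L at 8 days and 2i/L. Dll1, a Notch ligand, fell from 13.2 ± 2.30 RPM in S/L to 3.65 ± 4.51 RPM in GSK3i/L (limma adjusted p = 0.00875). It was also lower than S/L in MEKi/L (2.96 ± 0.26 RPM, limma adjusted p = 0.0186) and 2i/L (1.16 ± 0.54 RPM, adjusted p = 0.00038). At 24 days in GSK3i/L Dll1 was at 11.8 ± 6.13 RPM, above 8 days (limma adjusted p = 0.0404). GSK3i/L against MEKi/L had 3 higher and 2 lower, 2i/L against MEKi/L 0 and 0, 2i/L against GSK3i/L 2 and 1, and 24 against 8 days 2 and 2 (medians 0.26, -0.05, -0.35 and -0.11). Of all genes, 4.17%, 3.2%, 9.84% and 2.87% were called higher in these, and 8.64%, 5.29%, 6.59% and 7.1% lower. The receptor gene Kdr fell from 1.49 ± 0.44 to 0.082 ± 0.009 RPM between 8 and 24 days (limma adjusted p = 4.86e-05).

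Among genes of the anterior streak, node and endoderm (14 listed, 9 tested), to which Gsc belongs by function, 3 rose and 1 fell in MEKi/L against S/L (median 0.82). Of all genes, 15.7% were called higher and 9.7% lower in that comparison. Otx2, an anterior epiblast factor, rose from 40.6 ± 12.4 to 130 ± 9.19 RPM (limma adjusted p = 0.000386), and Chrd, a BMP antagonist of the organizer, from 2.00 ± 0.26 to 6.98 ± 0.61 RPM (adjusted p = 8.64e-05). Noto had 0 reads in all libraries, and Cer1 had 0 reads in every group but GSK3i/L at 8 days. In 2i/L, where Gsc was highest, 1 rose and 1 fell against S/L (median 0.06), against 23.7% and 18.5% of all genes. Otx2 was at 45.1 ± 12 RPM in 2i/L, below MEKi/L (-1.56 ± 0.29, limma adjusted p = 0.00304). GSK3i/L against S/L and against MEKi/L each had 1 higher and 1 lower (medians 0.52 and -0.02), 2i/L against MEKi/L 0 and 1 (median -0.24), 2i/L against GSK3i/L 2 and 2 (median -0.25), and 24 against 8 days 0 and 0 (median 0.06). Of all genes, 9.39%, 4.17%, 3.2%, 9.84% and 2.87% were called higher in these, and 10.1%, 8.64%, 5.29%, 6.59% and 7.1% lower.

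Trophoblast markers were examined because Cdx2 and Eomes also act there. The 13 of 14 genes found had summed levels of 161 to 194 RPM in 2i/L, 93.1 to 129 in MEKi/L, 59.1 to 88.9 in GSK3i/L, 51.0 to 85.1 at 24 days and 41.7 to 47.0 in S/L. Of 7 tested, 5 rose and 0 fell in 2i/L against S/L (median 1.43), where 23.7% of all genes were called higher. The highest in 2i/L were Tfap2c (77.9 ± 9.92 RPM), Tead4 (59.9 ± 5.69 RPM) and Tfap2a (19.1 ± 2.02 RPM), and Tfap2c was already at 30.7 ± 3.34 RPM in S/L. The means of Gata3 (0.494 against 0.866 RPM) and Ascl2 (1.16 against 2.14 RPM) were lower in 2i/L than in S/L but not called. In GSK3i/L against S/L 2 rose and 1 fell (median 0.54). Prl3d1 and Tpbpa, which mark differentiated placental trophoblast, had 0 reads in all 14 libraries, and the trophoblast factor Elf5 had 0 reads in S/L and GSK3i/L at 8 days. The part of these markers in the Cdx2 and Eomes results was not tested. In GSK3i/L against S/L, primitive endoderm markers had 3 higher and 0 lower of 8 tested (median 1.06), neural markers 1 and 3 of 5 (median -1.29), and embryonic stem cell markers 3 and 1 of 10 (median 0.21). Of all genes, 9.39% were called higher and 10.1% lower in that comparison.

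The 7 genes fell into different patterns over the libraries. As a description over 14 libraries that share groups, Pearson's r of log2 levels was 0.923 between Cdx1 and Nkx1-2, 0.869 between Cdx1 and T and 0.849 between T and Nkx1-2. Gsc was at -0.003 with Cdx1, -0.23 with T and 0.219 with Nkx1-2. Among 13002 tested genes with symbols other than predicted ones, the 3 most like Nkx1-2 were Axin2 (r = 0.976), Echdc2 (0.967) and Calb2 (0.963). The genes most like T were Ebp (0.966), Optn (0.957) and Lhpp (0.936), and those most like Cdx1 were Plcl2 (0.946), Rerg (0.945) and Sp5 (0.936). Gsc had Myo1a (0.978), Pramef12 (0.977) and Acsf2 (0.975), which stood at 1.04, 20.9 and 5.24 RPM in S/L and 13.4, 84.1 and 75.7 RPM in 2i/L. Evx1 had Col6a1 (0.981), Egflam (0.977) and Hoxa11 (0.97), of which Col6a1 is in the mesenchymal list. Cdx2 had Slc5a6 (0.931), Maml2 (0.93) and Hyal2 (0.907), and Eomes had Ptpn6 (0.918), Tdh (0.918) and Dapp1 (0.916).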

How the data were processed

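Poly(A) RNA sequencing of 14 libraries was analysed, and 24 whole-genome bisulfite samples were not analysed here. GRCm38, HISAT2 and Trim Galore 0.6.5 are named in the submitters' processing notes. Neither the counter nor its strand setting or annotation is given in the sources used here. Deposited values are log2 RPM of 25965 genes. In 8 columns at least 99.96% of values were whole multiples of 1 read (within 0.02 of a read), and 0 reads stood at 0.9 of a read. The authors' values in the other 6 columns (S/L and 8-day GSK3i/L) follow 1 shared distribution, so 5 comparisons cross both kinds of column. In the plain columns the rank of a value among the distinct values equalled its reads up to at least 442 reads. The same rank gave estimated reads in the matched columns.

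Log2 values were tested with limma 3.58.1 in R 4.3.3 (intensity trend, robust), with all 14 libraries in 1 fit and group as the only term. The fit was tested on simulated data. Floors (3 reads per library) and intervals cover counting error only. No test of counts was run, because the values are on a log scale. The genes and lists were chosen with earlier results of these data known. All 8 genes are given in every library. List genes are named by rule: up to 3 called genes per list and comparison with the largest difference and at least 1 RPM in the higher group, of which a part is printed. Genes named outside it (those at 0 reads, Hoxb5, Evx2, Tfap2c, Gata3 and Ascl2, and Axin2 and Sp5 at 24 days) were chosen after their values were seen. Likeness is Pearson's r of log2 values, leaving out predicted genes. Alternatives were 9 other settings and leaving out each of 14 libraries, plus 2 chosen after seeing the data. Same-numbered libraries of MEKi/L and GSK3i/L at 8 days deviated together (r = 0.669, 0.115 and 0.401). The first pair joins the 2 libraries that stand apart in transcript score. Unlike numbers could be as close (r = 0.38 for MEKi/L replicate 2 with GSK3i/L replicate 3), so a pairing is not shown. The labels do not state one, and a block by number was used only as an alternative. No other groups with 3 pairs had all of them above 0.1.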

Additional observations from a re-analysis of the deposited data

How the results depend on the processing

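Each comparison was repeated under 9 other settings and without each of the 14 libraries, and, chosen after seeing the data, without replicate 1 of both MEKi/L and GSK3i/L at 8 days and, for GSK3i/L against MEKi/L, with only these groups and the replicate number as a block. The number of the 8 genes called stayed within 1.5 times its value in 6 of the 7 comparisons, and no called difference reversed. The exception was 24 against 8 days (2 called): 1 with quantile normalization, log2(RPM + 0.5) values, only the groups compared, or both replicates 1 left out, and 0 after adjustment for the transcript-length score or with the 1 RPM minimum, at which Cdx2 and Evx1 were not tested. Leaving out a library gave 1 to 3 there. With the replicate number as a block, that comparison kept 2 called genes, and Gsc in 2i/L against MEKi/L was the only call of the 7 tested genes to change (limma adjusted p = 0.059). Over all groups, same-numbered libraries correlated at -0.314 to 0.669 (26 pairs, 8 above 0.1). Unlike-numbered ones correlated at -0.591 to 0.394 (52 pairs, 15 above 0.1), and 7 of 14 libraries correlated best with their own number. Only MEKi/L and GSK3i/L at 8 days had every same-numbered pair above 0.1. With these groups alone and the block, 6 genes were called between them, as before, and the block changed no call of the 7 genes there. Of single-gene results, 41 calls were lost and 12 gained over all alternatives, and 1116 stayed on their side of the threshold.

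Over all genes, 430 rose and 1064 fell at 24 against 8 days, but 171 and 630 with the block, 7 and 142 with only those groups, 60 and 305 with the score, and 253 and 590 without both replicates 1. Without GSK3i/L replicate 1 or 3 at 8 days these were 75 and 387 or 1403 and 1955, and without replicate 2 or 3 at 24 days 77 and 338 or 24 and 343. 2i/L against S/L had 3543 higher and 2770 lower, and 1744 and 1343 with the score. 2i/L against MEKi/L had 479 and 793, 868 and 1323 without MEKi/L replicate 1, 341 and 466 without MEKi/L replicate 2, and 912 and 1517 without both replicates 1. The cause was not tested. TMM scaling moved the share of called genes that were higher from 61.9% to 48.6% in MEKi/L against S/L (51.8% with quantile normalization), from 56.1% to 43.6% in 2i/L against S/L, from 59.9% to 46.2% in 2i/L against GSK3i/L and from 28.8% to 50.5% at 24 against 8 days (42.9% with quantile normalization). Quantile normalization moved it from 32.5% to 43.9% in GSK3i/L against MEKi/L. TMM moved the median log2 difference of all genes to between -0.02 and 0.04 (from 0.28 to 0.03 in 2i/L against S/L). Depth limits Mixl1, Evx1, Cdx2 and Gsc outside the MEK-inhibited media, each with few reads.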
